A study of Mus musculus with 4 samples.

Results

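The genes that encode histones were examined for occupancy by Eya1, a transcriptional coactivator and phosphatase that has no known DNA-binding activity of its own. The set was chosen by symbol and held the protein-coding genes of GENCODE release M21 whose names begin with Hist1h, Hist2h, Hist3h, Hist4h, H2af, H3f3 or H1f, which gave 82 of 21951 protein-coding genes. Of these, 67 carry a Hist name and are called replication-dependent here, and 15 carry an H2af, H3f3 or H1f name and are called variant genes. Eya1 was profiled by chromatin immunoprecipitation and sequencing (ChIP-seq) in whole kidneys of E13.5 mouse embryos that carried Eya1 as a knockin with an HA-FLAG tag, with anti-FLAG beads for the pull-down. Of the 4 samples, 2 were Eya1 ChIP replicates and the others were an input and an IgG control, which served only in the peak calling before deposit, and each assay pooled 80 kidneys, so nephron progenitors were mixed with the other cell types of the organ. Both Eya1 replicates carried the tagged allele, no untagged kidney was among the samples, and the sources used here do not say whether the replicates came from separate litters. Peaks had a median width of 1069 bp in replicate 1 and 188 bp in replicate 2. The deposited lists give positions only, so the read depth and the strength of each peak are unknown.

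Replication-dependent histone genes supply the bulk of the histones that package newly copied DNA. They are short genes without introns that lie in clusters, are transcribed in S phase with the help of the factor Npat, and end their mRNA in a stem-loop bound by Slbp in place of a poly(A) tail. Variant histones such as H3.3, H2A.Z, H2A.X and macroH2A come mostly from ordinary spliced and polyadenylated genes that are scattered over the genome and expressed through the whole cell cycle, and they mark particular places or states of chromatin.

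The stem-loop was used to check the class labels against the genome sequence (GRCm38, the assembly of mm10). Within 150 bp after the stop codon, 66 of the 67 replication-dependent genes held a match to the stem-loop consensus of 16 bases with at most 2 mismatches, at a median of 31.5 bp after the stop codon and a range of 22 to 59 bp. The exception was Hist2h2be. Of the 15 variant genes only H2afx, the gene of the DNA damage mark H2A.X, held a match, and 65 of the 67 replication-dependent genes but 8 of the 15 variant genes had a main transcript of a single exon. Stem-loops are shown on the gene's strand, 5′ to 3′, with the arms of the stem in capitals and the loop in lower case, for Hist4h4 and Hist1h1b, which had Eya1 peaks, for Hist1h2ae, which had none, and for H2afx.
Hist4h4 (chr6:136803998-136804013, minus strand): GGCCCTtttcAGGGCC
Hist1h1b (chr13:21779837-21779852, minus strand): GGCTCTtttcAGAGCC
Hist1h2ae (chr13:23570668-23570683, minus strand): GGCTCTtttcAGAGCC
H2afx (chr9:44335240-44335255, plus strand): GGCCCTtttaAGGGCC
The class labels thus matched the sequence at all replication-dependent genes but Hist2h2be.

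Further sequences show what Eya1 peaks at histone genes covered and what the interval between a pair of empty genes looked like. The Hist4h4 peak of replicate 2 lay wholly inside the coding sequence of this H4 gene, and the H3f3a and H2afy2 peaks shown are replicate 2 peaks upstream of and inside an intron of those variant genes, in that order. They are printed on the gene's strand, 5′ to 3′, with every CG dinucleotide in capitals.
Hist4h4 (chr6:136804173-136804295, minus strand, 123 bp): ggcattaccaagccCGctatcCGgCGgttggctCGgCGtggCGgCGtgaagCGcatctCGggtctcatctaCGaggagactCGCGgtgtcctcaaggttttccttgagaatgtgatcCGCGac
H3f3a (chr1:180814151-180814276, minus strand, 126 bp): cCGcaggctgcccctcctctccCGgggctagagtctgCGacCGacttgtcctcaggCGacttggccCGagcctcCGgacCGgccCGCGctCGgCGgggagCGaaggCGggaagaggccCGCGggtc
H2afy2 (chr10:61783232-61783374, minus strand, 143 bp): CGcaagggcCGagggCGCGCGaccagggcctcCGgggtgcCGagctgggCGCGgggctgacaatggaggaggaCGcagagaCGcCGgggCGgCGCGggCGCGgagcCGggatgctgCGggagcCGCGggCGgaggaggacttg
The last stretch is the whole interval between the divergent starts of Hist1h2ae and Hist1h2bg, the closest pair of opposed histone genes in the clusters, where neither replicate had a peak. It is printed on the plus strand with the CCAAT box, the TATA box (TATAAA) and the octamer (ATTTGCAT), read on either strand, in capitals.
Hist1h2ae/Hist1h2bg (chr13:23571221-23571395, plus strand, 175 bp): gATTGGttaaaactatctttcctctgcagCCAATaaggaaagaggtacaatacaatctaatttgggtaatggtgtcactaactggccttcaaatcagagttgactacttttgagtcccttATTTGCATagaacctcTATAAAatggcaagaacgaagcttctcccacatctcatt
The peaks of Hist4h4, H3f3a and H2afy2 held 14, 16 and 22 CG dinucleotides, and the 175 bp between Hist1h2ae and Hist1h2bg held 1. This interval does not stand for the wider promoter. Over the 1 kb on its TSS, Hist1h2ae had 76 CG dinucleotides and a ratio of observed to expected CpG of 0.926. Another empty interval, the 184 bp between Hist1h2bf and Hist1h2ad, held 7 and, of the elements marked above, only the CCAAT box.

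A gene was called occupied when a peak lay within 1 kb of any of its annotated transcription start sites (TSSs). In replicate 1, 12 histone genes were occupied, or 14.6% of the 82 (exact 95% interval 7.80 to 24.2%), against 20.2% of all protein-coding genes. In replicate 2 there were 9, or 11.0% (5.14 to 19.8%), against 14.7% of all genes. Peaks in both replicates were found at 8 histone genes, or 9.76% (4.31 to 18.3%), against 11.5%, and a peak in either replicate at 13, or 15.9% (8.72 to 25.6%), against 23.5%. The mean over the 2 replicates was 12.8% ± 2.59 (SD, n = 2) for histone genes and 17.5% ± 3.92 (SD, n = 2) for all genes. Both shares came from the same 2 lists and both were lower in replicate 2, so these SDs do not measure the error of their gap. Within each replicate the histone share was the lower, and its interval held the share of all genes. Taken as a single group, histone genes were occupied about as often as the background or somewhat less. These intervals cover counting error over genes only. Neighbouring histone genes share promoters and sequence and are not independent.

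The classes stood apart. Variant genes were occupied in 7 of 15 cases in replicate 1 (46.7%, exact 95% interval 21.3 to 73.4%) and in 6 of 15 in replicate 2 (40.0%, 16.3 to 67.7%). Replication-dependent genes were occupied in 5 of 67 cases in replicate 1 (7.46%, 2.47 to 16.6%) and in 3 of 67 in replicate 2 (4.48%, 0.933 to 12.5%). The intervals of the classes did not overlap in either replicate, and the background shares of 20.2% and 14.7% lay between them. This separation ended when genes were left out whose first 500 bp held 50% or more of 31-base words found elsewhere in the genome. In replicate 1, 22.7% (7.82 to 45.4%) of replication-dependent and 53.8% (25.1 to 80.8%) of variant genes were then occupied. The outcome is tied to that window. In the 500 bp centred on the TSS, only 12 of the 67 replication-dependent and 2 of the 15 variant genes reached 50%. The shares without those genes were not computed. The variant share exceeded the replication-dependent share by 39.2 percentage points in replicate 1 and 35.5 in replicate 2, a mean of 37.4 ± 2.60 (SD, n = 2). No test was run on these 2 differences, and the difference in replicate 2 was 13.3 points when a peak had to contain a TSS. Divergent genes share a start region, and when members with TSSs within 1 kb of each other were joined, the 67 replication-dependent genes made 54 promoters, of which 5 (9.26%, 3.08 to 20.3%) and 3 (5.56%, 1.16 to 15.4%) had a peak in replicates 1 and 2. The upper bounds of these shares lay just above the background, which was not joined in this way.

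**Figure D1:**
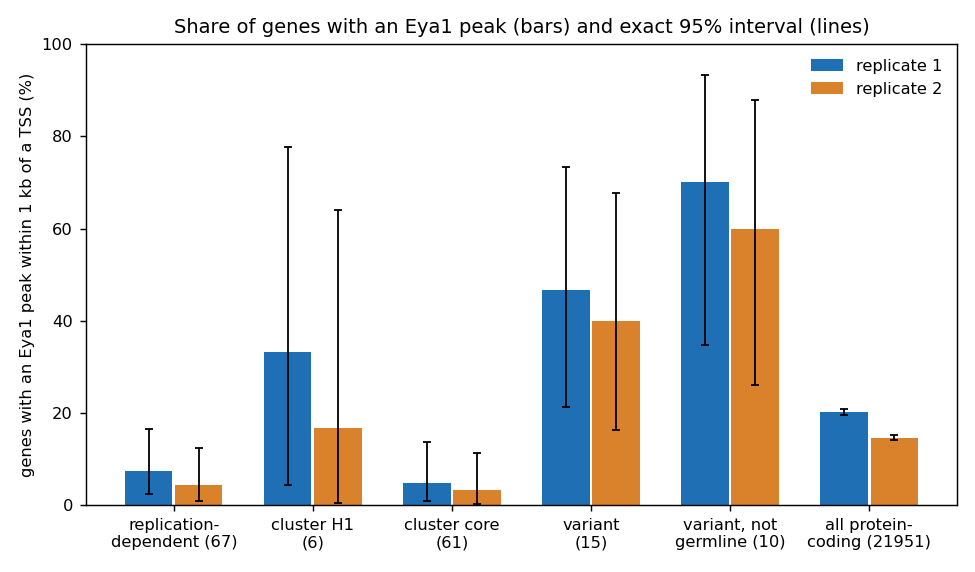
Bars give the percentage of genes with an Eya1 peak within 1 kb of a TSS in replicate 1 (blue) and replicate 2 (orange) for 6 groups of genes, with the number of genes in parentheses, and lines give exact 95% intervals. The variant bars, at 46.7% and 40.0%, stand above those of all protein-coding genes at 20.2% and 14.7%, and the replication-dependent bars, at 7.46% and 4.48%, stand below them.

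Among the variant genes, both genes of H3.3, the H3 form that is deposited outside replication, were occupied in both replicates. H3f3a had a replicate 1 peak of 2202 bp at chr1:180812389-180814590, which ran from -958 to 1243 bp relative to the start of its main transcript. Inside it lay 4 replicate 2 peaks, at chr1:180812568-180812761, chr1:180813025-180813218, chr1:180813848-180814064 and chr1:180814151-180814276. This was the largest number of peaks at any histone gene in either list, and the last of them is the 126-bp sequence printed above, 208 bp upstream of the outermost TSS. H3f3b had a replicate 1 peak of 1085 bp at chr11:116023506-116024590 and a replicate 2 peak of 345 bp at chr11:116024026-116024370 that lay wholly in annotated untranslated sequence.

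Of the 9 variant H2A genes, 4 were occupied, and all 4 in both replicates. H2afz, which encodes the promoter-associated variant H2A.Z, had a replicate 1 peak of 774 bp at chr3:137865023-137865796 and a replicate 2 peak of 120 bp at chr3:137865208-137865327. Both lay downstream of the start of its main transcript, the nearer edge 536 bp away in replicate 1, although the replicate 1 peak contained another annotated TSS of the gene. H2afx had 2 replicate 1 peaks, of 368 bp at chr9:44334575-44334942 over its start and of 1159 bp at chr9:44335064-44336222 over its 3′ part. Its 2 replicate 2 peaks, at chr9:44335120-44335453 and chr9:44335536-44335712, fell in the second of these. The single exon of H2afx carries the stem-loop printed above at chr9:44335240-44335255, so the stem-loop lay inside the longer replicate 2 peak.

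The macroH2A genes encode H2A forms with a large folded domain that are enriched on repressed chromatin. H2afy had a replicate 1 peak of 1328 bp at chr13:56134563-56135890 and a replicate 2 peak of 462 bp at chr13:56134824-56135285, the widest replicate 2 peak at any histone gene. H2afy2 had a replicate 1 peak of 1941 bp at chr10:61782490-61784430 and replicate 2 peaks of 143 bp at chr10:61783232-61783374 and 200 bp at chr10:61783462-61783661, both wholly within an intron. The start codons of H2afy and H2afy2 lie 7183 bp and 26252 bp from the TSS of the main transcript, so no peak at these genes touched coding sequence.

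The linker histone gene H1f0, which encodes H1.0 and is associated with differentiated or resting cells, had a replicate 1 peak at chr15:79027363-79030049, while the nearest replicate 2 peak was 34048 bp away. At 2687 bp this was the widest of the peaks at histone genes, as wide as or wider than 97.6% of the replicate 1 peaks at protein-coding TSSs. A TSS of the neighbouring gene Gcat also lay within 1 kb of it, so the peak cannot be assigned to H1f0 alone.

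No peak in either replicate was found at 8 variant genes. Of these, 5 belong to the germ line, namely the oocyte linker histone H1foo, the spermatid linker histone H1fnt and the short testis H2A genes H2afb1, H2afb2 and H2afb3. The other 3 were H2afv, the other H2A.Z gene, H2afj and the linker histone gene H1fx. Their nearest peaks in replicate 1 were 30236 bp away for H2afv, 3708 bp for H2afj and 62599 bp for H1fx. The peak nearest to H2afj was the one over Hist4h4, its neighbour on chromosome 6. With the germline genes left aside, 7 of 10 variant genes were occupied in replicate 1 (70.0%, 34.8 to 93.3%) and 6 of 10 in replicate 2 (60.0%, 26.2 to 87.8%). Of the 8 germline members in both classes together, which also include Hist1h1t, Hist1h2aa and Hist1h2ba, 0 were occupied in either replicate, a share that the exact 95% interval puts at no more than 36.9%.

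Only 2 replication-dependent genes were occupied in both replicates, and both lie outside the large clusters. Hist4h4, a lone H4 gene on chromosome 6, had a replicate 1 peak of 884 bp at chr6:136803653-136804536 that covered its whole coding sequence, and the replicate 2 peak of 123 bp printed above, 120 to 242 bp downstream of the TSS. Hist3h2a, an H2A gene of the small group on chromosome 11, had 2 replicate 1 peaks, of 317 bp at chr11:58954672-58954988 over its start and 865 bp at chr11:58955106-58955970 beyond it. Its replicate 2 peak of 134 bp at chr11:58955392-58955525 lay wholly in untranslated sequence, 707 bp from the TSS, the longest distance from a start to its nearest peak among the occupied genes of either list. The TSS of Hist3h2a at position 58954685 is also the start of an annotated Trim17 transcript, so occupancy of the 2 genes cannot be told apart. The neighbour Hist3h2ba had its nearest peak 5752 bp away in replicate 1.

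The remaining occupied replication-dependent genes are named because they were few, a choice made with their values known. Of these, 3 encode linker histone H1, the protein that binds DNA between nucleosomes. Hist1h1b had a replicate 1 peak of 1223 bp at chr13:21779387-21780609 from 16 bp downstream of its TSS, and its stem-loop printed above lay inside this peak. Hist1h1e shared a replicate 1 peak of 742 bp at chr13:23621414-23622155 with the H2B gene Hist1h2be. Hist1h1c had a replicate 2 peak of 246 bp at chr13:23739438-23739683, 630 bp from its TSS. None of these 3 H1 genes had a peak in the other replicate. Thus 3 of the 6 H1 genes of the clusters were occupied in either replicate (50.0%, 11.8 to 88.2%), compared with 3 of the 61 core histone genes (4.92%, 1.03 to 13.7%) and 23.5% of all genes, a share inside the H1 interval. All 6 H1 genes but only 16 of the 61 core genes had little repeated sequence (under 50% of 31-base words in the first 500 bp found elsewhere in the genome), and of these 16 core genes 3 were occupied (18.8%, 4.05 to 45.6%). By replicate, the H1 counts were 2 and 1 of 6 and the core counts were 3 and 2 of 61, and the means of 25.0% ± 11.8 (SD, n = 2) and 4.10% ± 1.16 (SD, n = 2) carry the wide error of so few genes.

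Both ends of this account depend on how starts are annotated. Hist1h2be counted as occupied only through a start annotated at position 23621124, which lies 35168 bp from its start codon and beside Hist1h1e. Its 0% of repeated words, which placed it among the 16 core genes with little repeated sequence, was measured from the same start. Hist1h1d counted as not occupied because its only GENCODE start, at position 23553262, lies 1828 bp from its start codon. Its 0.213% of repeated words was also measured from that start, and repeated words were not measured from RefSeq starts. RefSeq places the start of this H1 gene 1770 bp further on, at position 23555032, and around it lay a replicate 2 peak of 146 bp at chr13:23555018-23555163 and a replicate 1 peak of 596 bp at chr13:23555521-23556116. From the GENCODE start these peaks were 1756 and 2259 bp away, the nearest of any member outside the 1 kb limit. With RefSeq starts, 4 of the 6 cluster H1 genes were occupied in either replicate and Hist1h1d was the only H1 gene occupied in both, while the count of replication-dependent genes became 7 of the 62 that had a RefSeq start.

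By histone type, the core genes of the clusters were nearly empty. In either replicate, 1 of 18 H2A genes (Hist3h2a), 1 of 18 H2B genes (Hist1h2be), 0 of 12 H3 genes and 1 of 13 H4 genes (Hist4h4) were occupied. The 0 of 12 H3 genes allow a share of up to 26.5% by the exact 95% interval, which holds the 23.5% of all genes. In contrast to these H3 genes, both variant H3 genes were occupied in both replicates. The groups also differed in repeated sequence. In the first 500 bp, 11 of the 12 H3 genes but 0 of the 2 variant H3 genes had 50% or more repeated 31-base words. Of all protein-coding genes with that much, 0.649% had a peak in either replicate. Most of those genes had a CpG ratio under 0.75, against a median of 0.902 at the 12 H3 genes.

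Along the chromosomes, replication-dependent genes were grouped into blocks wherever neighbours were at most 100 kb apart, which gave 7 blocks. The Hist2 block on chromosome 3 spans 50.3 kb, holds 10 genes and had 0 peaks of either replicate, whether at a TSS or not. Chromosome 13 holds the 54 Hist1 genes in 4 blocks over 2219 kb, with gaps of 198, 1487 and 169 kb between them. The first of these blocks (122 kb, 18 genes) had 1 occupied gene, Hist1h1b, as the ninth of the 18. The second (8.51 kb, 5 genes) and the last (1.08 kb, 2 genes) had 0. The third (233 kb, 29 genes) had 3, of which Hist1h2be and Hist1h1e are neighbours at ranks 15 and 16 and Hist1h1c is at rank 21. The longest run of consecutive Hist1 genes without a peak counted 28 genes. It reached from the first block into the third, across the gaps of 198 and 1487 kb. It also included Hist1h1d, which had peaks of both replicates near its RefSeq start. Within the whole 233 kb there were 2 replicate 1 and 2 replicate 2 peaks, and in each list the peak that was not counted at a TSS was the one over Hist1h1d.

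**Figure D2:**
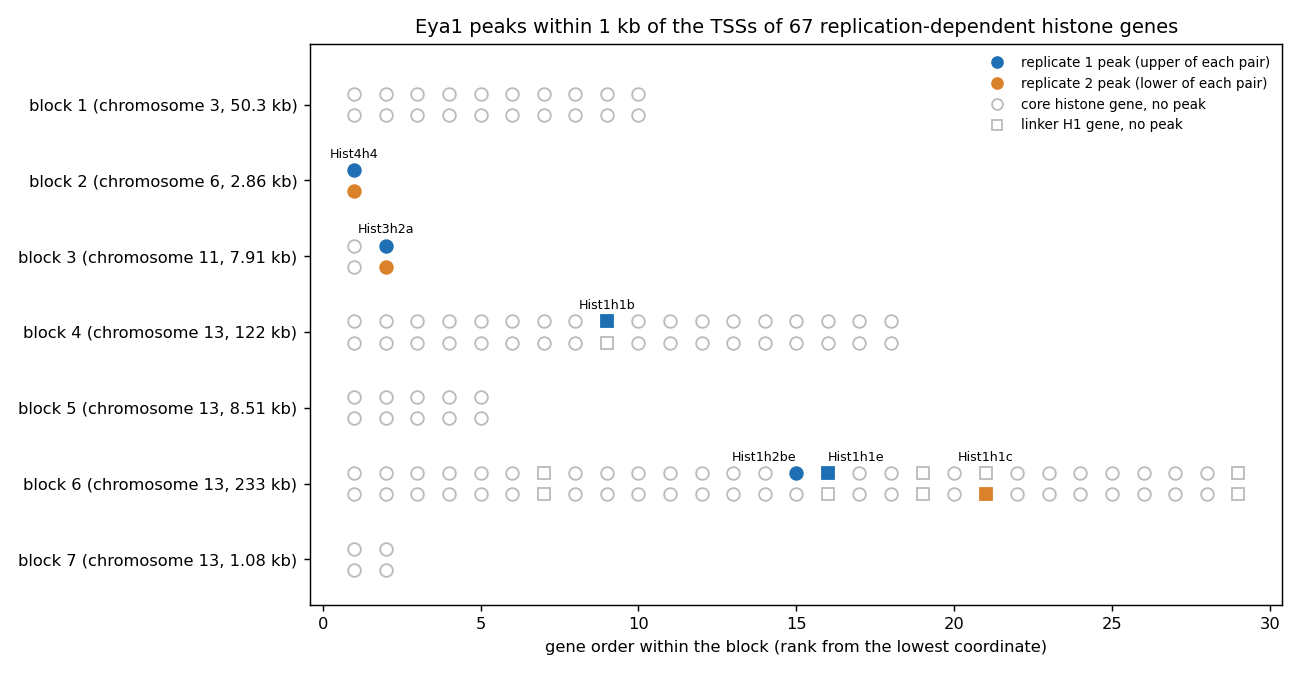
Each pair of symbols is a replication-dependent gene in chromosome order (horizontal axis, rank within the block), with replicate 1 above and replicate 2 below, squares for linker H1 genes and circles for core histone genes, and filled symbols for genes with a peak within 1 kb of a TSS. Filled symbols mark 6 of the 67 genes, and of the 4 on chromosome 13 none is filled in both replicates.

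Many cluster genes lie in divergent pairs, and none of these pairs had a peak. There were 13 pairs of members that point away from each other with at most 1 kb between their TSSs, 12 of them an H2A with an H2B gene, and together they made up 26 genes. The distance between the starts ranged from 175 to 659 bp with a median of 267 bp, and 0 of 13 pairs had a peak of either replicate. Over all protein-coding genes 23.5% had a peak in either replicate, and divergent pairs of other genes were not counted. In the first 500 bp, 15 of 18 replication-dependent H2A and 13 of 18 H2B genes had 50% or more repeated 31-base words. Of all protein-coding genes with that much repeated sequence, 0.649% had a peak. Most of those genes had a CpG ratio under 0.75, against medians of 0.902 at the H2A and 0.879 at the H2B genes. For the 61 replication-dependent genes without a peak, the nearest replicate 1 peak lay a median of 53.1 kb away (from 2259 bp up to 141.5 kb), and the nearest replicate 2 peak a median of 56.5 kb (from 1756 bp up to 512.1 kb). The empty stretches of the clusters were therefore long compared with the window of 1 kb.

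The peaks at histone genes numbered 13 in replicate 1 and 14 in replicate 2. The replicate 1 peaks were 317 to 2687 bp wide with a median of 1085 bp, against 1100 bp for the 3989 replicate 1 peaks at protein-coding TSSs. Their median was 865 bp over the 5 peaks at replication-dependent genes and 1243.5 bp over the 8 at variant genes. In replicate 2 the range was 120 to 462 bp with a median of 194 bp, against 199 bp for 3465 peaks at TSSs, and the class medians were 134 bp (3 peaks) and 194 bp (11 peaks). The class medians stood in the same order in both lists, but the ranges overlapped, at 317 to 1223 bp against 368 to 2687 bp in replicate 1 and 123 to 246 bp against 120 to 462 bp in replicate 2. A replicate 1 peak enclosed 13 of the 14 replicate 2 peaks, and 8 of the 13 replicate 1 peaks were overlapped by a replicate 2 peak. The exception among the replicate 2 peaks was the one at Hist1h1c.

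Peaks at histone genes lay mostly over the transcribed side of the start. Midpoints were downstream of the nearest member TSS for 12 of 13 peaks in replicate 1 (92.3%, against 76.5% of all peaks at TSSs) and for 11 of 14 in replicate 2 (78.6%, against 78.6%). A TSS was contained in 9 of the 13 replicate 1 peaks (69.2%, against 91.5% of all peaks at TSSs) and in 2 of the 14 replicate 2 peaks (14.3%, against 32.4%). Most peaks at these genes were therefore not centred on the start, and the 11 replicate 2 intervals with downstream midpoints reached from 80 to 1018 bp beyond the nearest start. Of the bases covered at replication-dependent genes in replicate 1, 38.8% were coding, 45.5% untranslated and 15.6% outside genes, which follows from genes that are short and without introns. At variant genes in replicate 1, 12.1% of the covered bases were coding, 38.2% untranslated, 30.0% intronic and 19.8% outside genes.

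**Figure D3:**
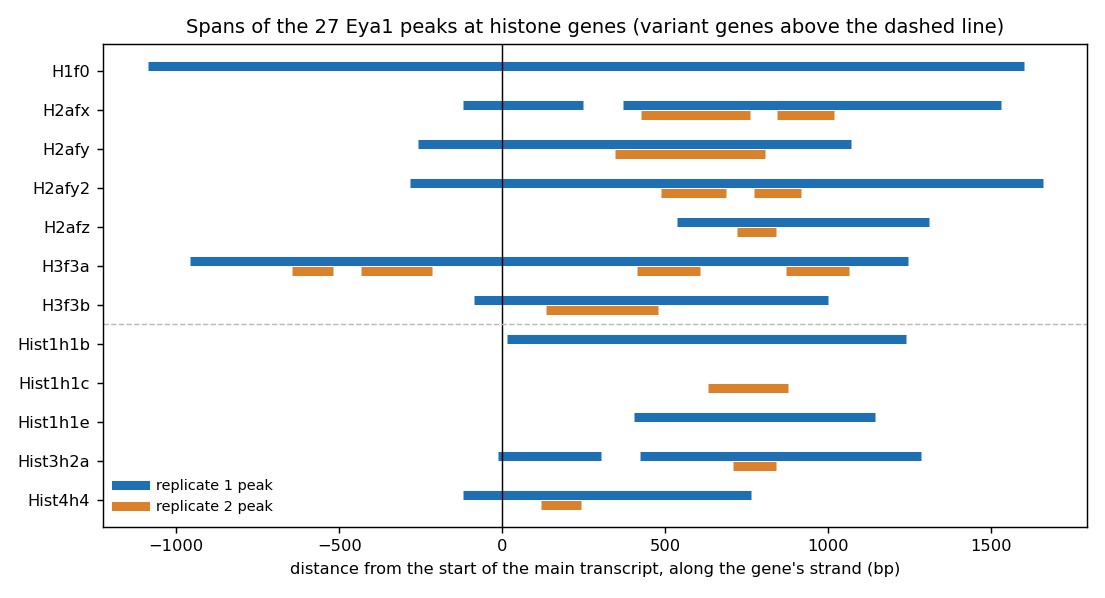
Horizontal lines show the extent of each Eya1 peak at a histone gene in bp from the start of the gene's main transcript along its strand, with replicate 1 in blue and replicate 2 in orange, and the dashed line separates variant genes (above) from replication-dependent genes (below). The peak shared by Hist1h1e and Hist1h2be is drawn at Hist1h1e. Replicate 2 intervals sit inside replicate 1 intervals at every gene that has both.

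Promoter sequence was not used by the rule. In the 250 bp before to 50 bp after the TSS, TATAAA was present on either strand in 37 of 67 replication-dependent genes (55.2%), 13.3% of variant genes and 12.6% of all protein-coding genes. CCAAT was present in 83.6% of replication-dependent promoters, against 66.7% of variant and 38.6% of all promoters, and in 18 of 18 H2A and 18 of 18 H2B promoters. The octamer ATTTGCAT, the element known from H2B promoters, was present in 22.4%, against 6.67% of variant and 1.64% of all promoters, and the 15 replication-dependent promoters that held it were all of H2A or H2B genes. GGGCGG was found in 46.3% of replication-dependent, 46.7% of variant and 45.4% of all promoters, so that it did not separate the classes, and in 10 of 13 H4 promoters. No member promoter held the RE1 element of the repressor REST with at most 2 mismatches (0 of 82). The share of all promoters with this element was not computed. The window also left out the sequence further downstream, where most peaks at these genes lay. A match is a property of the letters in the window and says nothing about binding.

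Content of CG dinucleotides did not separate the empty cluster genes from occupied genes elsewhere. Over the 1 kb on the TSS, the ratio of observed to expected CpG had a median of 0.878 at replication-dependent genes, against 0.571 over all protein-coding genes, 0.804 over all occupied genes and 0.411 over all genes without a peak. At variant genes it was 0.958 for the 7 with a peak and 0.379 for the 8 without, of which the 3 that are not germline genes had 0.842, 0.871 and 0.999. Among all genes with a ratio of 0.75 or more, 52.2% had a peak in either replicate, whereas 4 of 58 such replication-dependent genes (6.90%, exact 95% interval 1.91 to 16.7%) and 7 of 10 such variant genes (70.0%, 34.8 to 93.3%) did.

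Repeated sequence moved with the result. Many cluster genes share stretches of sequence with other copies, so that a short read from them can fit several places. How such reads were placed is not given in the sources used here, and their effect on the peak lists was not tested. The share of the 31-base words in the first 500 bp after the TSS that occur more than once in the genome had a median of 64.3% at replication-dependent genes and 7.87% at variant genes. It was 50% or more at 45 of the 67 replication-dependent genes, and 0 of these 45 had a peak (exact 95% upper bound 7.87%), while over all protein-coding genes 12 of 1849 such genes (0.649%) had a peak. Most of these 1849 genes had a CpG ratio under 0.75. Of the 6305 genes with a ratio of 0.75 or more, 6194 had under 50% repeated words. The share with a peak among repeated genes with such a ratio was not computed. The 6 occupied replication-dependent genes had 0 to 41.1% of repeated words (median 9.68%). The 0% of Hist1h2be was measured at a start 35168 bp from its start codon. The 6 H1 genes of the clusters, which differ from each other more than the core genes do, had a median of 2.55%. Less of the sequence was repeated around the start itself. Over the 500 bp centred on the TSS the median at replication-dependent genes was 32.6%, and 12 of the 67 reached 50%, all without a peak. Shares without those 12 genes were not computed. Among genes with under 50% in the first 500 bp, 6 of 22 replication-dependent genes (27.3%, 10.7 to 50.2%) were occupied in either replicate. So were 7 of 13 variant genes (53.8%, 25.1 to 80.8%), against 25.6% of all such genes. By replicate, these shares were 22.7% and 13.6% for replication-dependent genes and 53.8% and 46.2% for variant genes, against 22.1% and 16% of all such genes. Without the repeated genes, the interval of the replication-dependent share held the background share in each replicate (7.82 to 45.4% and 2.91 to 34.9%), and the part of repeated sequence in the low share of the class was not tested. In the 13 replication-dependent genes that had under 50% repeated words and a CpG ratio of 0.75 or more, 4 were occupied (30.8%, 9.09 to 61.4%), against 53.0% of all such genes and 7 of 10 variant genes.

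**Figure D4:**
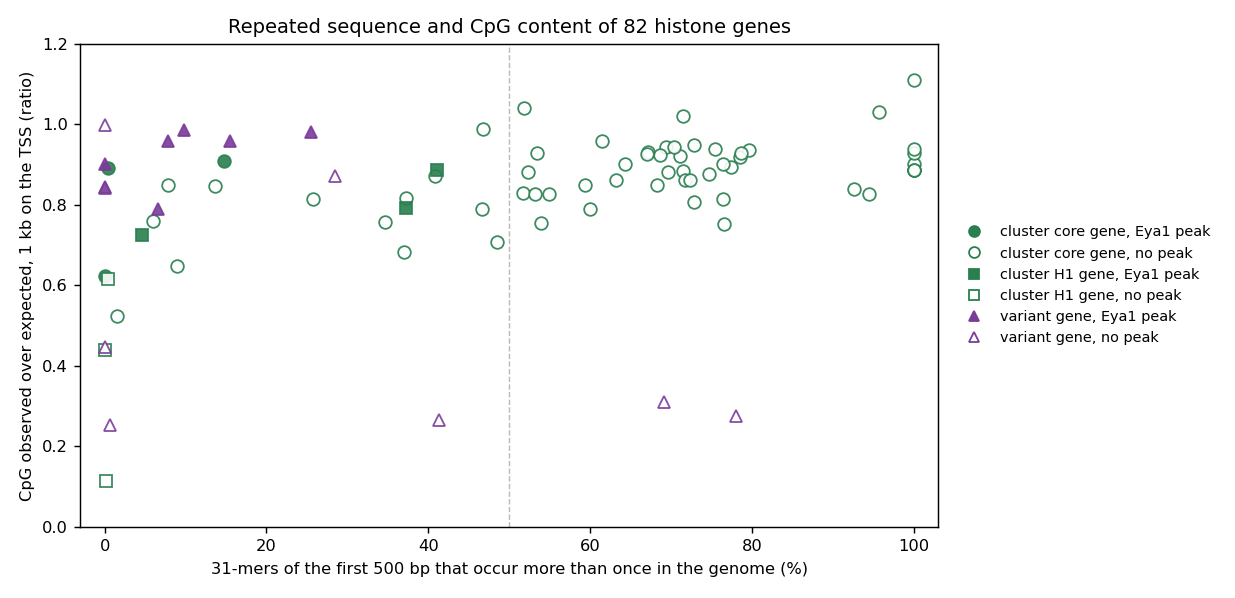
Each symbol is a histone gene, placed by the percentage of 31-base words in its first 500 bp that recur in the genome (horizontal axis) and by the ratio of observed to expected CpG over 1 kb on the TSS (vertical axis), with filled symbols for genes that have a peak in either replicate. All filled symbols lie left of the dashed line at 50%, and 45 open replication-dependent symbols lie to its right at CpG ratios like those of the occupied genes.

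Genes that serve the histone supply were counted from a fixed list. Of 7 genes for transcription and 3′ end formation of replication-dependent histones (Slbp, Npat, Casp8ap2, Lsm10, Lsm11, Zfp473 and Hinfp), 3 had a peak in replicate 1 (42.9%, 9.90 to 81.6%), namely Slbp, Zfp473 and Hinfp, and 0 had one in replicate 2, and the shares of all genes, 20.2% and 14.7%, lay inside the intervals (0 to 41.0% in replicate 2). Of 12 histone chaperone genes, 8 were occupied in replicate 1 and 7 in replicate 2, with 6 in both (50.0%, 21.1 to 78.9%). The chaperone genes occupied in both replicates were Asf1a, Atrx, Npm1, Nap1l1, Ssrp1 and Supt16. The chaperone shares were 66.7% (34.9 to 90.1%) in replicate 1 and 58.3% (27.7 to 84.8%) in replicate 2. They stood above those of the variant genes, at 46.7% and 40.0%, with overlapping intervals. With peaks in both replicates, the 50.0% of chaperone genes compared with 40.0% of variant genes and 11.5% of all genes.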

How the data were processed

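Eya1 ChIP-seq was analysed from the 2 deposited peak lists, which hold chromosome, start and end only. Per the paper's methods, the authors used default Bowtie alignment to mm10 and MACS peak calling, with P value cutoffs that varied and with input or IgG as the control, while the submitters' processing notes name HISAT2 with mm10, and which cutoff and control made each list is not given in the sources used here. Replicate 2 held 11 mitochondrial peaks, and 0 peaks ran past a chromosome end of GRCm38. Positions are printed 1-based.

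Groups came from the sample titles. A gene was occupied when a peak lay within 1 kb of any GENCODE M21 TSS. Shares have exact Clopper-Pearson 95% intervals and the mean and SD of 2 replicates, with no test. Words of 31 bases were counted over both strands of the genome. CpG was measured 500 bases to each side of the main TSS, and motifs from 250 bases before to 50 after it. RefSeq starts (GRCm38.p6) matched 76 of the 82 genes. Repeated-word, overlap and stem-loop scripts were tested on simulated data. Computation used Python 3.11.15, numpy 2.4.6, scipy 1.17.1 and matplotlib 3.10.9.

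Members, classes and gene lists were chosen with earlier results of these data known. Variant genes with a peak and promoters with peaks in both lists are named with positions, variant genes without a peak are named, and others are given by counts, except where said. Alternatives for the window, start, promoter joining, germline genes, peak width, overlap rule, block gap and each replicate were planned, and RefSeq starts and the removal of repeated genes were added after the data were seen.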

Additional observations from a re-analysis of the deposited data

How the results depend on the processing

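The variant share exceeded the replication-dependent share under all 38 alternative values of that difference. A share or difference is called moved here when it changed by at least the SD of the 2 replicates, and a median width or a count of blocks when it changed by over 1.5 times. Of 87 alternative values 42 did not move, 45 moved and 0 changed sign, which only the 38 differences could do. Values follow in the order replicate 1, replicate 2, both and either, in percent for the share of histone genes and in percentage points for the difference. With peaks required to contain a TSS the shares were 11.0, 2.44, 2.44 and 11.0% and the differences 43.7, 13.3, 13.3 and 43.7, with the larger falls in the list of narrow peaks. Within 250 bp the shares were 6.10% in replicate 2, 6.10% in both and 12.2% in either, and the differences 42.2, 25.2, 25.2 and 42.2. Within 3 kb the differences were 36.2 in replicate 1 and 34.7 in either. From the 5′ end of each gene alone the differences were 32.5, 22.2, 23.7 and 31. Without germline genes they were 62.2, 55.3, 56.9 and 60.6, since these genes lower the variant share. With joined promoters the shares were 17.4% in replicate 1 and 18.8% in either. With peaks of at least the median width of their list the shares were 8.54, 7.32, 6.10 and 9.76%, and the differences 31.8 in replicate 2 and 33.3 in both. Of the settings chosen after seeing the data, RefSeq starts gave differences of 33.2, 29.3, 30.9 and 31.6, and leaving out genes with 50% or more repeated words, which kept 35 genes, gave shares of 34.3, 25.7, 22.9 and 37.1% and differences of 31.1 in replicate 1, 32.5 in replicate 2 and 26.6 in either. The RefSeq setting also changed the set of genes, to 62 replication-dependent and 14 variant genes. It lacked H2afx, a variant gene occupied in both lists. Without a replicate, the share in either list ranged from 11.0 to 14.6% and the difference from 35.5 to 39.2, which are the single-replicate values again. The 8 genes with peaks in both lists stayed at 9.76% when the peaks had to overlap by 1 bp or by 50% of the narrower. Median widths stayed within 1.5 times of the reported values under each setting, each list being its own replicate, and 4 blocks held a peak with gaps of 100 or 500 kb. The background shares were not recomputed for these settings, except for RefSeq starts (20.5, 14.9, 11.5 and 23.8% of 16716 genes). No paired analysis was possible because the results come from no test, and the class difference was taken within each replicate. Peak lists carry no depth, so an empty gene cannot be told from one below the calling limit.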

Other observations

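Occupancy of the other genes among and beside the histone clusters varied by place. Over the whole span of the Hist1 genes on chromosome 13, from the first to the last histone gene, 3 of 49 other protein-coding genes had a peak, namely Abt1, Zfp184 and Zfp322a. By replicate the counts were 2 and 1 of 49. The share was thus low among the other genes of this span as well as among its Hist1 genes (4 of 54 in either replicate). In the 1 Mb before that span 3 of 27 did, namely Trim27, Zkscan3 and Zkscan8, and all 3 were occupied in both replicates. In the 1 Mb after it 5 of 10 did in both replicates, among them Gmnn, which encodes geminin, the inhibitor of replication licensing. Around the Hist2 genes on chromosome 3, 12 of 35 genes in the 1 Mb before the block and 7 of 23 in the 1 Mb after it had a peak, against 23.5% of all protein-coding genes. Of these, 11 and 7 were occupied in replicate 1, and 7 and 1 in replicate 2. The Hist2 block itself holds no other protein-coding gene.

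Inside the blocks there were 2 other protein-coding genes. Trim17, whose transcript begins at the start of Hist3h2a, had peaks in both replicates, and Hfe, the iron-handling gene between the Hist1 genes of the largest block, had none.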
